A study of Arabidopsis thaliana with 9 samples.

Results

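Cuticular wax synthesis was followed through 10 Arabidopsis thaliana genes, chosen by locus identifier from 32678 genes in the deposited files. They are CER1 (AT1G02205), CER2 (AT4G24510), CER3 (AT5G57800), CER4 (AT4G33790), CER6 (AT1G68530), CER10 (AT3G55360), KCS1 (AT1G01120), KCS12 (AT2G28630), WSD1 (AT5G37300) and MAH1 (AT1G57750). All 10 were found in each of the 9 libraries. RefSeq names CER6 as KCS6 and MAH1 as CYP96A15, and gives the other 8 under the symbols used here. Each genotype gave 3 libraries of polyadenylated RNA from whole seedlings aged 5 days, raised under continuous white light of 14.59 μmol·m-2·s-1. The mutants csu5-1 and csu5-3 carry alleles of COP1 SUPPRESSOR 5 in the Col-0 ecotype, and Col is the Col-0 wild type. The series title names a missense mutation in that gene, but the labels do not say which allele carries it, what the other allele is, whether a cop1 mutation remains in the mutant lines, or how many seedlings went into a library.

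Cuticular wax coats the outer wall of the shoot epidermis and limits water loss. It is built from very-long-chain acyl groups that an elongase complex in the endoplasmic reticulum extends in cycles. One branch then turns the chains into aldehydes, alkanes, secondary alcohols and ketones, and the other into primary alcohols and wax esters. In stems and leaves of Arabidopsis the alkane branch gives most of the wax. Among the 10 genes, CER6, KCS1 and KCS12 belong to the family of condensing enzymes (3-ketoacyl-CoA synthases) that start each cycle, CER10 is the reductase that ends it, and CER2 is a helper that lets CER6 make the longest chains. CER1 and CER3 act together to form alkanes, and MAH1 oxidises alkanes further. CER4 is the reductase that makes primary alcohols, and WSD1 joins them to acyl groups as wax esters.

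The deposited values carry no unit and were taken to be FPKM (fragments per kilobase of gene length and per M counted reads), so levels can be compared between genes as well as between libraries. The estimated depth was 37.1 to 43.0 M counted reads per library, and 22643 to 22784 genes had a value above 0. Levels below are FPKM as deposited. Fold changes come from limma on log2(FPKM + 0.5) after scaling of the libraries, a scale that understates changes of low genes. Calls required a fold of more than 1.5, up or down, together with an adjusted p (Benjamini-Hochberg) under 0.01, which are the study's own limits, and "rose" and "fell" are kept for called genes. The locus of the mutated gene is not in the labels. WRKY32 (AT4G30935), taken from background knowledge as that gene and not checked here, stood at 8.17, 8.22 and 7.96 FPKM in csu5-1, 4.58, 3.65 and 3.78 FPKM in csu5-3, and 8.48, 10.06 and 11.08 FPKM in Col. Against Col its call was lower in csu5-3, by limma (log2 fold −1.20 ± 0.12, adjusted p = 0.00057), and none was made in csu5-1 (limma adjusted p = 0.21).

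In csu5-1 the alkane-forming pair CER1 and CER3 stood higher than in Col, as did the elongation genes KCS1 and CER2. Of the 10 wax genes, 8 had at least 1 FPKM in at least 3 libraries and were tested, and each of the 8 was above that level in all 9 libraries. Of these 8, 4 rose in csu5-1 against Col (CER1, KCS1, CER2 and CER3), 1 fell (KCS12), and 3 were not called (CER4, CER6 and CER10). Over all 19329 genes tested in this comparison, 16.2% were called, 8.31% higher and 7.86% lower. The 10 genes and the other lists below were chosen with earlier results of these data known. Counts set beside shares of all genes are therefore a description and not a test of excess. The median log2 fold of the 8 wax genes was 0.38, and that of all genes tested was −0.002. Between csu5-3 and Col 1 of the 8 was called, KCS12, which fell, and 0.248% of all genes were called there, 0.119% higher and 0.129% lower. Libraries of the genotypes compared did not overlap for 5 of the 8 in csu5-1 against Col, where 57.7% of all genes tested did not, for 4 of the 8 in csu5-3 against Col (27.2% of all genes) and for 8 of the 8 in csu5-1 against csu5-3 (56.1% of all genes). Overlap, here and below, was judged on FPKM as deposited, without the scaling used for the folds. Scaling raises csu5-1 and lowers Col and csu5-3 slightly, so overlap on scaled values can differ. Seedlings were sequenced whole, so more epidermal cells and more RNA per cell cannot be told apart in any of these values.

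**Figure D1:**
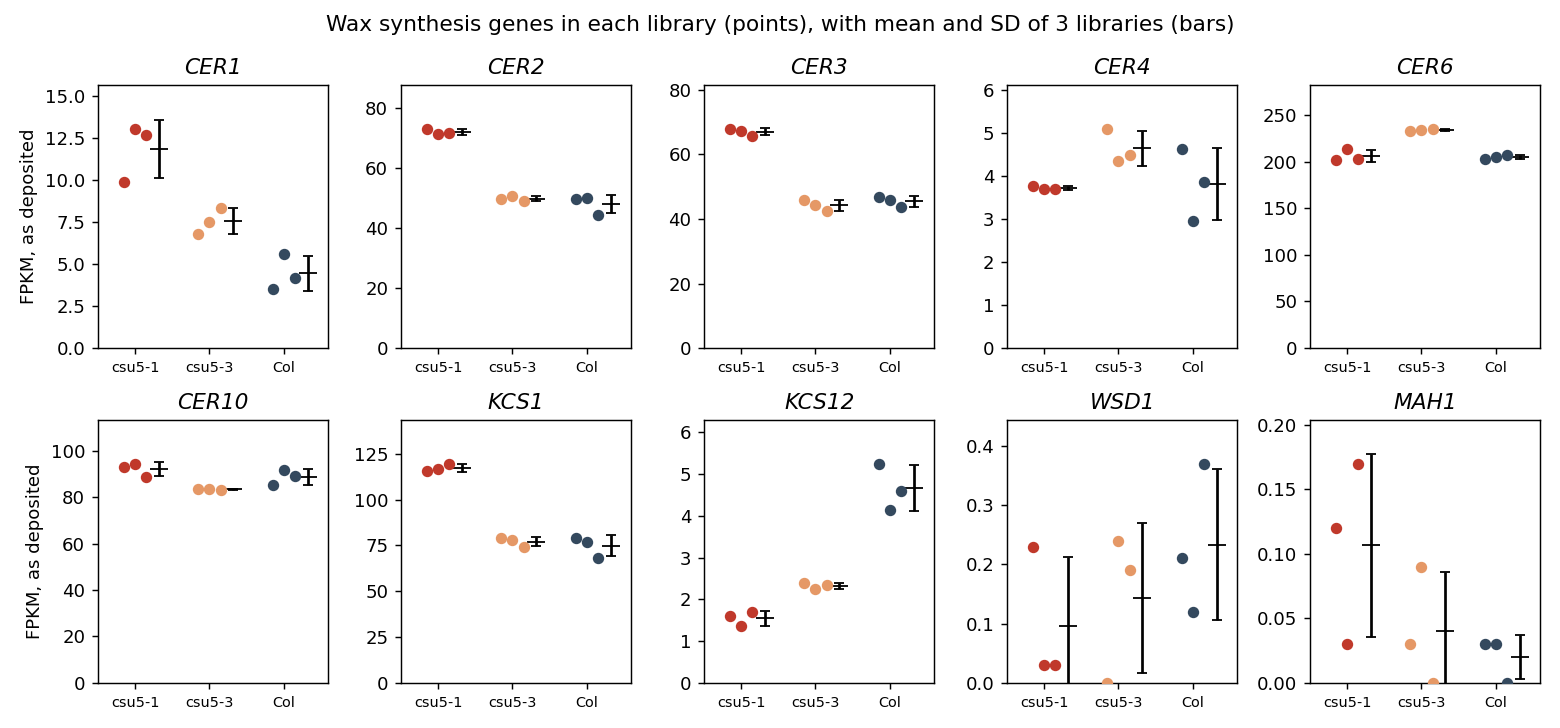
FPKM of each wax synthesis gene in every library (points, vertical axis from 0 with its own scale in each panel), with the mean and SD of 3 libraries beside them, for csu5-1, csu5-3 and Col. CER1, CER2, CER3 and KCS1 lie higher in all 3 csu5-1 libraries than in any other library, whereas KCS12 lies lowest in csu5-1 and highest in Col.

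CER1, the alkane-forming enzyme, differed most among the 4 that rose. It stood at 9.87, 13.0 and 12.7 FPKM in csu5-1, 6.80, 7.52 and 8.36 FPKM in csu5-3, and 3.53, 5.61 and 4.17 FPKM in Col. The 3 genotypes did not overlap, with csu5-3 between csu5-1 and Col. Means were 11.9 ± 1.73 FPKM in csu5-1, 7.56 ± 0.781 FPKM in csu5-3 and 4.44 ± 1.07 FPKM in Col (SD, n = 3 each). Against Col, CER1 rose in csu5-1 with a log2 fold of 1.41 ± 0.15 (SE, limma, adjusted p = 8.7e-06). Its log2 fold in csu5-3 against Col was 0.72 ± 0.15 with limma adjusted p = 0.022, which did not reach the threshold for a call. It rose in csu5-1 against csu5-3 by a log2 fold of 0.69 ± 0.15 (limma adjusted p = 0.0026). That last call was lost without csu5-1 replicate 2 (log2 fold 0.62, adjusted p = 0.012), csu5-1 replicate 3 (0.64, adjusted p = 0.013) or csu5-3 replicate 1 (0.63, adjusted p = 0.013), and when low genes were kept in (0.67, adjusted p = 0.012).

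CER3, the partner of CER1 in alkane formation, stood at 68.0, 67.1 and 65.8 FPKM in csu5-1, 45.8, 44.4 and 42.5 FPKM in csu5-3, and 46.8, 45.8 and 43.7 FPKM in Col. All csu5-1 libraries lay above the other 6, and csu5-3 and Col overlapped. CER3 rose in csu5-1 against Col with a log2 fold of 0.63 ± 0.05 (limma adjusted p = 7.3e-07) and against csu5-3 with 0.67 ± 0.05 (limma adjusted p = 4.8e-07). The log2 fold of CER3 in csu5-3 against Col was −0.04, with a 95% interval of −0.15 to 0.07. The level of CER1 was 14.5% to 19.4% of that of CER3 in csu5-1, 14.9% to 19.7% in csu5-3, and 7.5% to 12.2% in Col. Per length, CER1 was thus the less abundant member of the pair in every library. This ratio lay above every Col library in all csu5-1 and csu5-3 libraries, and the ranges of the mutants overlapped.

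MAH1, the alkane hydroxylase, was near 0 throughout. It was listed at 0.12, 0.03 and 0.17 FPKM in csu5-1, 0.03, 0.09 and 0.00 FPKM in csu5-3, and 0.03, 0.03 and 0.00 FPKM in Col. At the estimated depths 1 read on MAH1 was worth about 0.012 to 0.014 FPKM, so its highest value stood for about 13 reads and no difference was read from it. It was below the filter on low values, and when low genes were kept in it was not called in any comparison (limma adjusted p of 0.11 or more).

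KCS1, a condensing enzyme of broad chain-length range, stood at 116, 117 and 119.7 FPKM in csu5-1, 79.1, 77.8 and 74.3 FPKM in csu5-3, and 79.0, 76.9 and 68.2 FPKM in Col. The csu5-1 libraries lay well above the other 6, with means of 117 ± 2.06 FPKM in csu5-1, 77.1 ± 2.50 FPKM in csu5-3 and 74.7 ± 5.72 FPKM in Col (SD, n = 3 each). KCS1 rose in csu5-1 against Col with a log2 fold of 0.73 ± 0.06 (limma adjusted p = 6.4e-07) and against csu5-3 with 0.69 ± 0.06 (limma adjusted p = 1.2e-06). The csu5-3 and Col libraries overlapped, with a log2 fold of 0.04 (95% interval −0.08 to 0.17).

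CER2, which extends the reach of the CER6 condensing enzyme, stood at 73.1, 71.3 and 71.8 FPKM in csu5-1, 49.6, 50.6 and 49.2 FPKM in csu5-3, and 49.7, 50.01 and 44.5 FPKM in Col. Again the csu5-1 libraries stood apart from the other 6. CER2 rose in csu5-1 against Col with a log2 fold of 0.66 ± 0.05 (limma adjusted p = 7.8e-07) and against csu5-3 with 0.61 ± 0.05 (limma adjusted p = 1.7e-06), whereas csu5-3 and Col overlapped (0.05, 95% interval −0.07 to 0.17). Both CER2 and CER3 rose by little more than the 1.5-fold threshold. Without scaling of the libraries they were not called in csu5-1 against Col, with log2 folds of 0.58 for CER2 and 0.56 for CER3, and CER2 was not called against csu5-3 (0.53). The gene model of CER2 overlaps those of ATR1 (AT4G24520) and AT4G07275, both on the opposite strand. No source used here states whether counting used strand. AT4G07275 shares exon sequence with CER2 (14.2% of the CER2 windows compared). Its level is not given here, and its part in the CER2 values was not tested. ATR1 stood at 96.0, 95.5 and 89.2 FPKM in csu5-1, 131, 142 and 132 FPKM in csu5-3, and 124, 128 and 129.9 FPKM in Col. Its log2 fold in csu5-1 against Col was −0.36 ± 0.05, not called. The part of ATR1 reads in the CER2 values was not tested either.

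CER6, the main condensing enzyme of stem wax, was the most abundant of the 10 genes in all 9 libraries. It stood at 201, 214 and 203 FPKM in csu5-1, 233, 234 and 235 FPKM in csu5-3, and 203, 205 and 207 FPKM in Col. As deposited, before scaling, the csu5-1 and Col libraries overlapped, while all csu5-3 libraries lay above both. The log2 fold in csu5-1 against Col was 0.09 (95% interval −0.01 to 0.18). The step in csu5-3 was small, a log2 fold of 0.19 ± 0.04 against Col (limma adjusted p = 0.027), and it was not called. Thus, of the CER6 and CER2 pair, CER2 was called in csu5-1 and CER6 was not. No test of the difference between their folds was run.

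CER10, the enoyl-CoA reductase of the elongase complex, stood at 93.1, 94.6 and 88.7 FPKM in csu5-1, 83.7, 83.7 and 83.3 FPKM in csu5-3, and 85.2, 91.7 and 89.2 FPKM in Col. As deposited, before scaling, the csu5-1 and Col libraries overlapped, and the csu5-3 libraries lay just below both. Its log2 fold was 0.13 in csu5-1 against Col (95% interval 0.03 to 0.24) and −0.09 in csu5-3 against Col (−0.19 to 0.02). In csu5-1 against csu5-3 the log2 fold was 0.22 ± 0.05 (limma adjusted p = 0.0023), which passed the threshold on p but not that on fold. CER10 overlaps AT3G55350 on the opposite strand, a gene at 4.37 to 7.02 FPKM over the 9 libraries.

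KCS12, a condensing enzyme of the same family as CER6 and KCS1, went against the other called wax genes. It stood at 1.60, 1.35 and 1.70 FPKM in csu5-1, 2.38, 2.25 and 2.35 FPKM in csu5-3, and 5.25, 4.14 and 4.6 FPKM in Col. No genotypes overlapped, and both mutants lay below Col. KCS12 fell in csu5-1 with a log2 fold of −1.27 ± 0.14 (limma adjusted p = 8.8e-06) and in csu5-3 with −0.86 ± 0.14 (limma adjusted p = 0.0075). These folds share the same 3 Col libraries. In csu5-1 against csu5-3 the log2 fold was −0.40 ± 0.14 (limma adjusted p = 0.029), not called. The call in csu5-3 was close to the threshold. Leaving out any 1 library other than csu5-1 replicate 2 ended it, at adjusted p-values up to 0.044, and log2 folds ranged from −0.94 to −0.79. It was also lost when low genes were kept in (limma adjusted p = 0.022) and in a fit of the 6 libraries compared (limma adjusted p = 0.013). Relative to KCS1, KCS12 was at 1.16% to 1.42% in csu5-1, 2.89% to 3.16% in csu5-3, and 5.38% to 6.74% in Col.

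The primary alcohol branch, followed here through CER4 and WSD1, was at low levels, as CER1 and MAH1 of the alkane branch were in Col. CER4, its reductase, stood at 3.77, 3.70 and 3.69 FPKM in csu5-1, 5.09, 4.34 and 4.48 FPKM in csu5-3, and 4.61, 2.95 and 3.86 FPKM in Col. The csu5-1 libraries lay within the range of Col and below those of csu5-3, which overlapped Col. The log2 fold was 0.06 in csu5-1 against Col (95% interval −0.25 to 0.37), 0.27 in csu5-3 against Col (−0.04 to 0.57) and −0.21 in csu5-1 against csu5-3 (−0.52 to 0.10), and none was called. WSD1, the wax ester synthase, was listed at 0.23, 0.03 and 0.03 FPKM in csu5-1, 0.00, 0.24 and 0.19 FPKM in csu5-3, and 0.21, 0.12 and 0.37 FPKM in Col. Its highest value stood for about 30 reads, its libraries overlapped between genotypes, and it was below the filter. When low genes were kept in it was not called in any comparison either (limma adjusted p of 0.27 or more). The level of CER4 was 28.4% to 38.2% of that of CER1 in csu5-1, 53.6% to 74.9% in csu5-3, and 52.6% to 130.6% in Col.

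**Figure D2:**
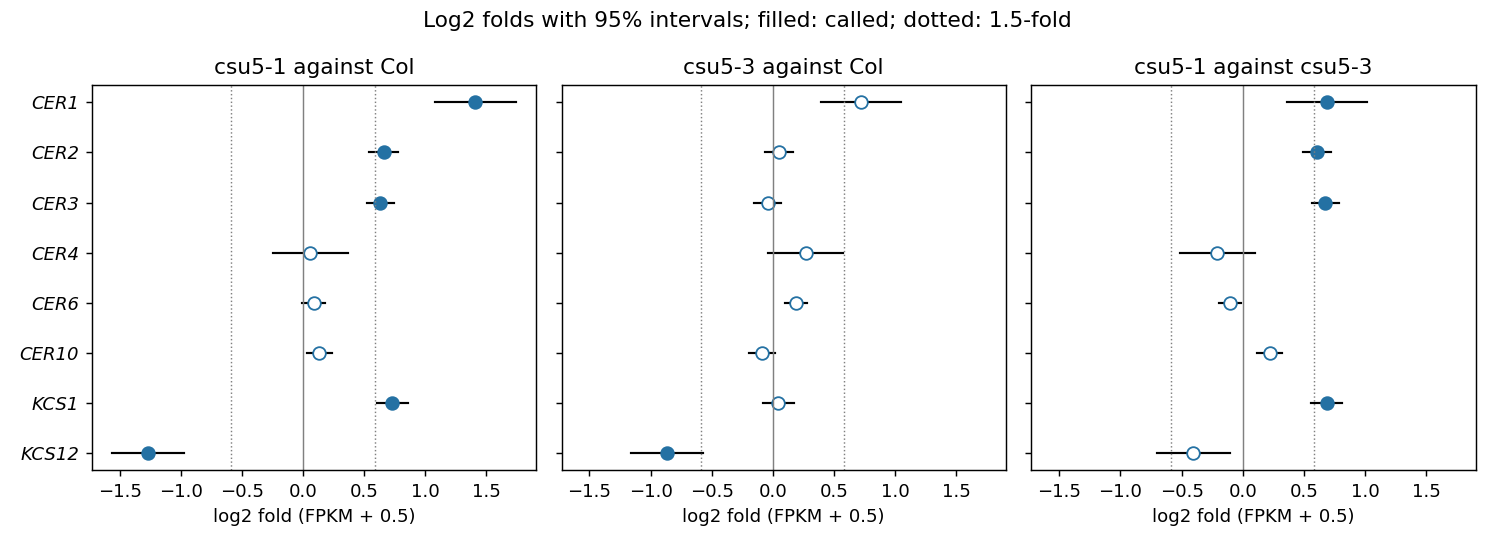
Log2 folds of the 8 tested wax genes, on the scale of log2(FPKM + 0.5), with 95% intervals from limma, for each mutant against Col and for csu5-1 against csu5-3. Filled points were called, and dotted lines mark a 1.5-fold change. CER1, CER2, CER3 and KCS1 lie right of the 1.5-fold line in both comparisons of csu5-1.

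The order of levels changed at a few places. In csu5-1 it ran CER6, KCS1, CER10, CER2, CER3, CER1, CER4 and KCS12, followed by MAH1 and WSD1 near 0. In csu5-3 and Col, CER10 stood above KCS1, without overlap in either genotype, and in csu5-1 KCS1 stood above CER10 without overlap. In Col the libraries of KCS12, CER1 and CER4 overlapped, so these 3 had no resolved order there. CER2 and CER3 overlapped in Col but not in csu5-1 or csu5-3, where CER2 was higher. The summed level of all 10 genes was 566.5 to 581.7 FPKM in csu5-1, 499.7 to 505.1 FPKM in csu5-3, and 465.2 to 482.7 FPKM in Col. CER6 made up 35.5% to 36.8% of that sum in csu5-1, 46.1% to 47.1% in csu5-3, and 42.5% to 44.4% in Col.

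**Figure D3:**
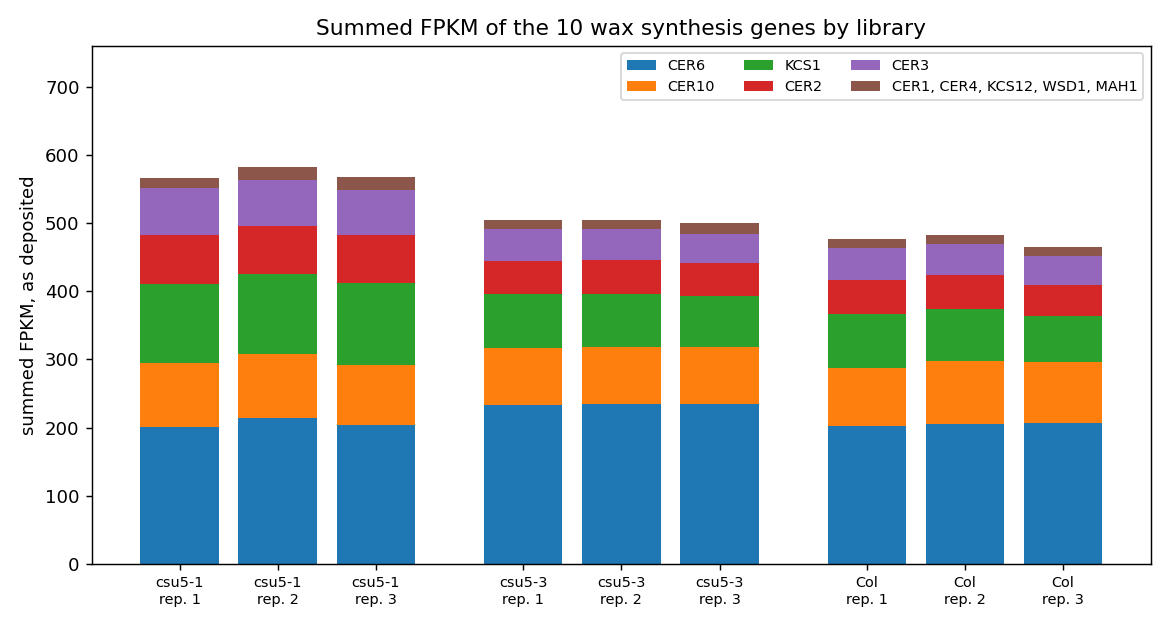
Summed FPKM of the 10 wax synthesis genes in each library (stacked bars from 0), with replicates of csu5-1, csu5-3 and Col from left to right. CER6, KCS1, CER10, CER2 and CER3 make up nearly the whole bar, and the csu5-1 bars are the tallest, at 566.5 to 581.7 FPKM.

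In csu5-1 against csu5-3, which sets the alleles side by side, 4 of the 8 tested wax genes rose (CER1, CER2, CER3 and KCS1) and limma called none lower, with 2 lower at an unadjusted p below 0.05. Of all genes tested, 14.7% were called in this comparison, 8.12% higher and 6.59% lower. The median log2 fold of the 8 was 0.42, and that of all genes was −0.008. Against Col, limma called 0 of the 8 higher in csu5-3, and at an unadjusted p below 0.05 there were 2 (CER1 and CER6). Shares of all genes at an unadjusted p below 0.05 were not counted, here or below. At the stricter adjusted p below 0.05 with no fold threshold, 400 of 19329 genes were higher and 599 lower in csu5-3 against Col. The numbers were 4733 and 4885 in csu5-1 against Col, and 4317 and 4498 in csu5-1 against csu5-3.

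The upstream sequences of the 5 called wax genes are shown because 4 of them moved together and 1 moved the other way. They are the 250 bases before the annotated gene start in RefSeq's TAIR10.1 assembly, 5′ to 3′ in the direction of transcription. The authors aligned to TAIR10, and the coordinates are those of TAIR10.1. Capitals mark 4 kinds of word found on either strand: the G-box CACGTG, the W-box TTGACC or TTGACT that WRKY proteins bind, the L1 box TAAATGCA or TAAATGTA known from epidermal genes, and the MYB-type words AAACCA or TAACCA.
CER1 (chr1:418166-418415, plus strand): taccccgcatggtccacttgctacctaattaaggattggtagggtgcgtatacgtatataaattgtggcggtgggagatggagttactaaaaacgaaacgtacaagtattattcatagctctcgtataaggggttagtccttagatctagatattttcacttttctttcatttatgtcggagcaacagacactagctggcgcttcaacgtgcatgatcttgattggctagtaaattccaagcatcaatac
CER2 (chr4:12660437-12660686, plus strand): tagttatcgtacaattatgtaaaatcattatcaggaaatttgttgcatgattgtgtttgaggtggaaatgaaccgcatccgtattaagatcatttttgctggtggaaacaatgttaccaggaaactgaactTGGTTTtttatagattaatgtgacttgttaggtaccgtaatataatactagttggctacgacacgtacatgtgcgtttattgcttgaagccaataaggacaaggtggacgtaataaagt
CER3 (chr5:23419934-23420183, plus strand): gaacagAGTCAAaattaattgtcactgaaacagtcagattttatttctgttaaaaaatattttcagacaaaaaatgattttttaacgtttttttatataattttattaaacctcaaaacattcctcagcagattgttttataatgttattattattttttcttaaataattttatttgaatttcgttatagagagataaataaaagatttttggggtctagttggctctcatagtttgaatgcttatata
KCS1 (chr1:59216-59465, minus strand): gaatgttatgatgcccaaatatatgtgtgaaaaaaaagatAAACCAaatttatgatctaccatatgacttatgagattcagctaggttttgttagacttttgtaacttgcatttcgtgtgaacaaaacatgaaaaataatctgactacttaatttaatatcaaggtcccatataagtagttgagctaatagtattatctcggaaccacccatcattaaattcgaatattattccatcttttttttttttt
KCS12 (chr2:12277418-12277667, minus strand): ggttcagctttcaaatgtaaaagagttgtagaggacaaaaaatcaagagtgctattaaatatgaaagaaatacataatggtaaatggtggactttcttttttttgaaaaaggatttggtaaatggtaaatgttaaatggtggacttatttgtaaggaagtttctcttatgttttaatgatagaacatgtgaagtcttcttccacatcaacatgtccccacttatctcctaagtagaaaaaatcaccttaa

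In these 5 windows, CER2 held 1 MYB-type word 119 bases before its start, KCS1 held 1 at 210 bases, and CER3 held 1 W-box word at 244 bases. None of the words occurred in the windows of CER1 or KCS12. Over windows from 250 bases before to 50 bases after the start, the W-box was in 2 of the 10 wax genes (CER3 and CER10) and in 32.4% of 26711 protein-coding genes. The MYB-type words were in 3 of 10 (CER2, CER10 and KCS1) and in 44.7% of all. The G-box and the L1 box were in 0 of 10, and in 7.8% and 5.1% of all. Each of the 3 windows with a word held 1, so no words overlapped there. A match here is a description of letters and not a binding site.

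Other genes of chain elongation were called both ways in csu5-1, and more stood higher than lower. Of 21 listed, 19 were tested, and against Col 3 rose and 2 fell, with a median log2 fold of 0.33. Among all genes tested, 8.31% were called higher and 7.86% lower. Of the 19, 13 were higher and 3 lower at an unadjusted limma p below 0.05. Many genes pass so loose a limit: at adjusted p below 0.05 with no fold threshold, 4733 of 19329 were higher and 4885 lower. KCS16, another condensing enzyme of this family, stood at 36.1, 40.4 and 33.3 FPKM in csu5-1, 10.2, 10.9 and 10.4 FPKM in csu5-3, and 7.29, 9.58 and 10.5 FPKM in Col, a log2 fold of 2.03 ± 0.12 in csu5-1 against Col (limma adjusted p = 3.6e-08). The gene listed here as CER17 (AT1G06360) rose with a log2 fold of 0.98 ± 0.06, at 128.2 FPKM on average in csu5-1 and 68.7 FPKM in Col. RefSeq does not give the name CER17 to this locus, and the match of name and locus was not checked. CER26, a relative of CER2, fell with −0.66 ± 0.08, with 9.79, 9.11 and 10.4 FPKM in csu5-1 against 16.6, 17.2 and 15.8 FPKM in Col. It thus moved opposite to CER2. KCS11 fell with −0.60 ± 0.07, and KCS2, named after its values were seen, rose with 0.59 ± 0.11. Both lay close to the 1.5-fold threshold, and KCS11 lost its call with a pseudocount of 1 (−0.58) or without Col replicate 1 (−0.53), csu5-1 replicate 2 (−0.58) or csu5-1 replicate 3 (−0.57). KCS2 lost its call with a pseudocount of 1 (0.58), with no filter on low values (0.57), without scaling (0.52), under quantile normalization (0.58), and without Col replicate 1 (0.51), Col replicate 3 (0.56) or csu5-1 replicate 2 (0.53). In csu5-1 against csu5-3, KCS16 (1.83 ± 0.12), CER17 (0.80 ± 0.06) and KCS5 (0.72 ± 0.07), a close relative of CER6, rose, and CER26 fell (−0.86 ± 0.08). Of all genes tested there, 8.12% were called higher and 6.59% lower. Of the 19, limma called 0 in csu5-3 against Col, where only 0.248% of all genes tested were called. At an unadjusted p below 0.05 there, 5 were higher and 2 lower. The smallest p-value there belonged to the CER2 relative CER26-LIKE (AT3G23840), at 24.2, 21.3 and 20.9 FPKM in csu5-3 and 13.6, 16.9 and 15.1 FPKM in Col (log2 fold 0.53 ± 0.09).

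Of 4 export genes and 13 regulators tested in csu5-1 against Col, 1 of each was called, both higher, where 8.31% of all genes were called higher. For the regulators that share is near the background. Among the export genes, LTPG2, a lipid transfer protein anchored at the cell surface, rose with a log2 fold of 0.61 ± 0.06 and stood at 271, 284 and 268 FPKM in csu5-1 and 211, 184 and 176 FPKM in Col. Its call was lost without scaling (0.53) and without Col replicate 3 (0.56). It also rose in csu5-1 against csu5-3 (0.87 ± 0.06). Its log2 fold in csu5-3 against Col was −0.26 ± 0.06 (limma adjusted p = 0.039), not called. The regulators tested were 13 of 17 listed, and MYB30, a transcription factor that activates very-long-chain acyl synthesis, rose in csu5-1. It stood at 32.6, 29.1 and 30.1 FPKM in csu5-1, 19.3, 19.0 and 15.8 FPKM in csu5-3, and 17.4, 18.4 and 15.8 FPKM in Col, a log2 fold of 0.89 ± 0.09 against Col and 0.83 ± 0.09 against csu5-3. The other 12 regulators were not called, and the median of the 13 was 0.08. With a pseudocount of 0.1 the count called higher was 2, as SPL9, named after its values were seen, was then called (0.63). Of the 13, limma called 0 in csu5-3 against Col, where only 0.248% of all genes tested were called. At an unadjusted p below 0.05 there, 1 was higher and 2 lower, and the smallest p belonged to DEWAX, a repressor of wax genes (−0.22 ± 0.07). In csu5-1 against Col, DEWAX had a log2 fold of −0.37 ± 0.07 (limma adjusted p = 0.00048). It was 1 of 4 among the 13 that passed the threshold on p there, and it did not pass that on fold.

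Cutin is the polyester that holds the wax, and several genes of its synthesis were higher in csu5-1. Of 15 listed, 14 were tested, and against Col 4 rose and limma called 0 lower, with a median log2 fold of 0.43. Among all genes tested, 8.31% were called higher and 7.86% lower. Of the 14, 8 were higher and 1 lower at an unadjusted limma p below 0.05. At the stricter adjusted p below 0.05 with no fold threshold, 4733 of all 19329 genes were higher and 4885 lower. CUS1, a GDSL-type esterase or lipase, stood at 94.9, 96.0 and 86.5 FPKM in csu5-1, 28.1, 31.2 and 25.9 FPKM in csu5-3, and 24.1, 25.4 and 22.3 FPKM in Col (log2 fold against Col 2.01 ± 0.07, limma adjusted p = 1.4e-09). BDG1, a hydrolase-like protein of the epidermal wall, rose with 1.52 ± 0.06, DCR, an acyltransferase needed for cutin, with 1.53 ± 0.11, and HTH, an oxidoreductase of cutin monomers, with 1.30 ± 0.07. In csu5-1 against csu5-3 the same 4 genes rose, with log2 folds of 1.02 to 1.77, beside 8.12% of all genes called higher. Of the 14, limma called 0 in csu5-3 against Col, where only 0.248% of all genes tested were called. At an unadjusted p below 0.05 there, 2 were higher. DCR had the smallest p there, at 7.13, 6.32 and 7.04 FPKM in csu5-3 and 4.84, 5.09 and 4.11 FPKM in Col (0.50 ± 0.11, limma adjusted p = 0.024).

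**Figure D4:**
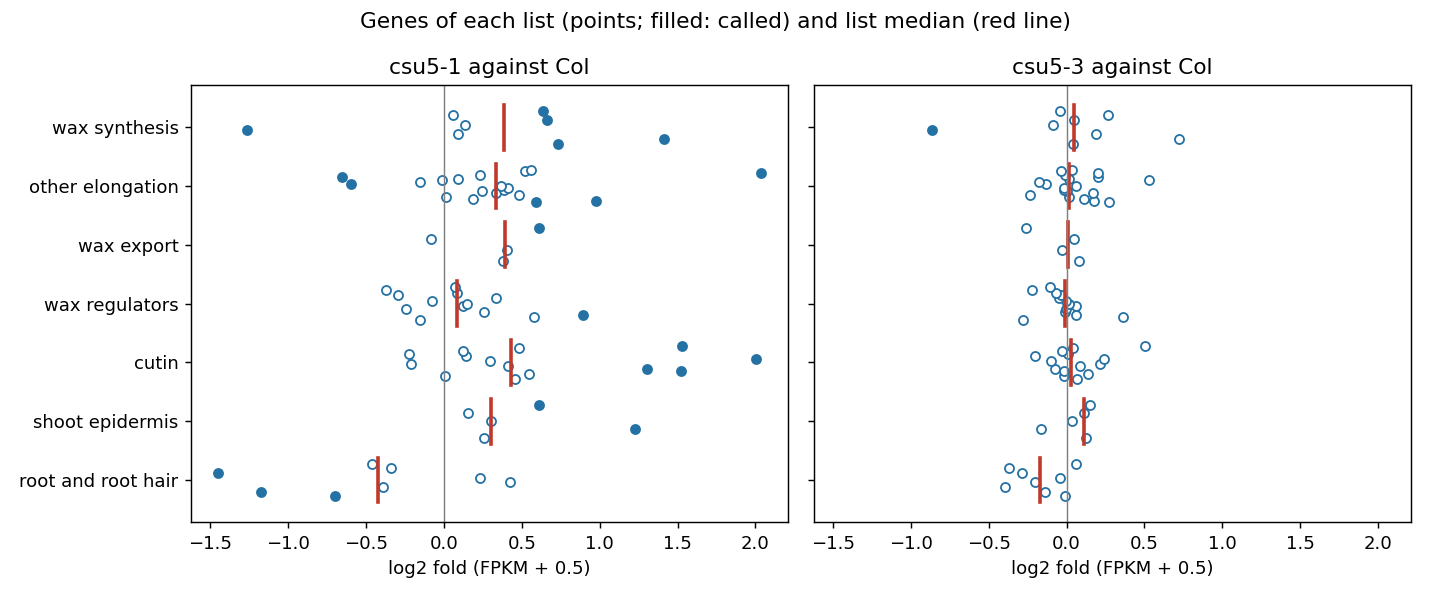
Log2 folds on the scale of log2(FPKM + 0.5) for the tested genes of 7 lists (points, filled where called) with the list median (red line), for csu5-1 (left) and csu5-3 (right) against Col. Wax, elongation, export and cutin medians lie at 0.33 to 0.43 in csu5-1 against Col and at 0.01 to 0.05 in csu5-3 against Col.

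Some marker genes of the shoot epidermis, the tissue that makes wax, moved with these lists in csu5-1. Of 5 shoot epidermis markers, each tested, 2 rose in csu5-1 against Col and limma called none lower, beside 8.31% of all genes called higher. At an unadjusted limma p below 0.05, 5 were higher and 0 lower. At the stricter adjusted p below 0.05 with no fold threshold, 4733 of all 19329 genes were higher and 4885 lower. PDF1, an epidermis-specific wall protein, stood at 462, 467 and 530.2 FPKM in csu5-1, 197, 194 and 196 FPKM in csu5-3, and 204, 233 and 221 FPKM in Col (log2 fold against Col 1.23 ± 0.07). ATML1, the homeodomain regulator of epidermal fate, rose with 0.61 ± 0.05 and was not called without scaling (0.53). The summed level of the 5 markers was 588.4 to 651 FPKM in csu5-1, 305 to 312.5 FPKM in csu5-3, and 307.3 to 337.2 FPKM in Col, and no marker was at 0 in any library. PDF1 made up most of that sum. The other 4 summed to 120.8 to 133.8 FPKM in csu5-1, 109.3 to 115.6 FPKM in csu5-3, and 99.2 to 104.6 FPKM in Col, without overlap between genotypes, and 3 of these 4 were not called in csu5-1 against Col. Of 8 markers of root and root hair, 3 fell in csu5-1 against Col, beside 7.86% of all genes called lower. They were PRP3, EXPA18 and EXPA7, with log2 folds of −1.45 to −0.70. None was called higher by limma, and 5 of the 8 were lower and 2 higher at an unadjusted p below 0.05. The 2 higher were CASP1 (log2 fold 0.425 ± 0.086) and SCR (0.231 ± 0.073), the latter named after its values were seen. The markers of root thus did not move together. EXPA7 was not called without Col replicate 1 (−0.55) or csu5-1 replicate 2 (−0.55). In csu5-1 against csu5-3, where 8.12% of all genes were called higher and 6.59% lower, PDF1 rose (1.39 ± 0.07). The same 3 root hair genes fell there, and CASP1, an endodermis gene, rose (0.63 ± 0.09). CASP1 lost that call without scaling (0.55), and without csu5-1 replicate 2 (0.56) or csu5-3 replicate 3 (0.57), and EXPA7 without csu5-1 replicate 2 (−0.54) or csu5-3 replicate 2 (−0.62). The summed root markers stood at 131.7 to 145.4 FPKM in csu5-1, 119.6 to 136 FPKM in csu5-3, and 135.7 to 146.6 FPKM in Col, with overlap between csu5-1 and Col. CASP1 had the highest level among the 8 in each library. Only with CASP1 left out, which was higher in csu5-1 than in Col, were the genotypes apart. The other 7 root markers then summed to 44.8 to 47.5 FPKM in csu5-1, 60.5 to 65.5 FPKM in csu5-3, and 67.5 to 74.3 FPKM in Col. Against Col, limma called 0 of the 5 epidermis markers in csu5-3 (1 higher and 1 lower at an unadjusted p below 0.05) and 0 of the 8 root markers (0 higher and 3 lower). Only 0.248% of all genes tested were called in that comparison. The part of these markers in the wax gene values was not tested.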

How the data were processed

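RNA of 9 whole-seedling libraries was analysed, 3 per genotype, grouped by the sample titles. The authors trimmed reads (Trimmomatic), mapped them to the TAIR10 genome (HISAT2 2.05) and obtained raw reads per gene (HTSeq), per the series' design text and the submitters' processing notes. Each deposited file pairs gene identifiers with values and has no header. The values were read as FPKM made by the authors, from the values: the sums, 691388 to 718744, differed between libraries, and 73.9% to 82.3% of low values of short genes came within 0.1 read of a whole number at the estimated depth, against 14.6% to 16.6% at other depths. The values would look the same as RPKM, and no source used here says how the authors made them. Raw read numbers were not used here, so counting error is known only through the estimated depths.

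The test took 19329 genes that reached 1 FPKM in 3 or more libraries. Libraries were divided by a trimmed mean of their log ratios to the average library (0.3 trimmed at each end), with factors of 0.9598 to 0.9683 for csu5-1, 1.01 to 1.026 for csu5-3 and 1.015 to 1.024 for Col. limma 3.58.1 in R 4.3.3 was fitted to log2(FPKM + 0.5) with a mean-variance trend and a mean per genotype over all 9 libraries, and p-values were adjusted over all genes by Benjamini-Hochberg. The test was run on simulated data first. The labels do not say that replicates came from separate cultures, so p-values measure only the spread between these libraries.

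The 10 wax genes and the 6 other lists (70 genes) were chosen with earlier results of these data known. All wax genes are named, with, from each list, the called genes of the 4 smallest p-values in the comparisons of csu5-1 (the 2 smallest where none was called), and in csu5-3 against Col each called gene or the 1 of smallest p. Gene models and upstream sequences came from RefSeq's TAIR10.1. No 100-base window of 9 wax genes occurred in the exons of another gene. For CER2, 14.2% did, in the opposite-strand gene AT4G07275. The protein comparison planned for CER1, CER3 and the condensing enzymes was not analysed here. Tables were handled in Python 3.11.15 with numpy 2.4.6 and pandas 2.3.3, and plots made with matplotlib 3.10.9. The alternatives tried were other pseudocounts, no filter, no scaling, quantile normalization, fits to the 6 libraries compared, a replicate block, looser thresholds, and leaving out each library.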

Additional observations from a re-analysis of the deposited data

How the results depend on the processing

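Each tested wax gene was refitted under 17 alternatives in the 3 comparisons, 408 values in all. Of these, 385 kept their side of the threshold, 17 lost a call and 6 gained one. No called value changed sign. In csu5-1 against Col, the count of wax genes called higher was 2 without scaling, where the median of all genes stood at −0.08, because CER2 and CER3 slipped below the 1.5-fold threshold, and 4 or 5 under each other alternative. The count called lower in csu5-3 against Col, 1 in the fit reported, was 0 with no filter on low values and 0 with only the 6 libraries compared. At adjusted p below 0.05 with no fold threshold, 2 wax genes were called higher in csu5-3 against Col, and 1 was called lower in csu5-1 against csu5-3.

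Same-numbered libraries of different genotypes deviated together only weakly (correlations of 0.017 to 0.151, against −0.136 to 0.031 for other pairs), and 16 of 18 comparisons of a library with another genotype were highest at its own number. The labels do not say what a number marks, so it was not used to pair libraries. With the replicate block, 1 wax gene (CER1, log2 fold 0.72, limma adjusted p = 0.0052) was called higher in csu5-3 against Col, and 43 genes in all were called lower there, against 25 without it. The cause was not tested.

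Over all genes, csu5-3 against Col had 23 called higher and 25 lower. There were 3 and 6 with no filter, 15 higher with only the 6 libraries compared, and 400 and 599 at adjusted p below 0.05 with no fold threshold. That threshold gave 4733 and 4885 in csu5-1 against Col (1606 and 1519 as reported) and 4317 and 4498 in csu5-1 against csu5-3 (1569 and 1273 as reported). Leaving out 1 library at a time gave 4 to 25 higher and 7 to 26 lower in csu5-3 against Col, and 0 to 1 wax genes lower there. The counts of wax genes were then 4 higher and 1 lower in csu5-1 against Col, and 3 to 4 higher in csu5-1 against csu5-3. Depth limits WSD1 and MAH1, which stood for at most about 30 and 13 reads in a library.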

Other observations

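Several related genes were below the filter on low values. CUS2, a relative of CUS1 in cutin assembly, was listed at 0.39, 0.36 and 0.27 FPKM in csu5-1, 0.15, 0.07 and 0.07 FPKM in csu5-3, and 0.07, 0.03 and 0.03 FPKM in Col, without overlap between csu5-1 and the other 6 libraries. CER1-LIKE1, a close relative of CER1, was listed at 0.15, 0.30 and 0.23 FPKM in csu5-1, at 0.00, 0.00 and 0.05 FPKM in csu5-3, and at 0 in all 3 Col libraries. SHN2, an AP2-family regulator of cuticle genes, was listed at 0 in all 3 csu5-1 libraries, at 0.49, 0.43 and 0.45 FPKM in csu5-3, and at 0.22, 0.08 and 0.62 FPKM in Col. SHN1 was listed at 0 in all 9 libraries. In the limma fit without the filter, against Col CUS2 was called higher in csu5-1 (0.64 on the log2 scale, adjusted p = 4e-04), and it was not called against csu5-3 (0.51, adjusted p = 0.0017, under the 1.5-fold threshold). SHN2 was called lower in csu5-1 against csu5-3 (−0.93, limma adjusted p = 0.0053) and not against Col (−0.63, limma adjusted p = 0.031). CER1-LIKE1 passed the threshold on p but not on fold in csu5-1 against Col (0.55, limma adjusted p = 0.00093) and against csu5-3 (0.50, limma adjusted p = 0.0017). These folds depend on the pseudocount of 0.5, which is above most of the values, and are no measure of size for genes listed at 0. None of the 3 was called in csu5-3 against Col. The 4 genes were picked from the lists after their values were seen.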
